A study of Mus musculus with 8 samples.

Results

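Itln1 and Ang4 encode secreted proteins of the gut lining and were examined in whole small intestinal (SI) tissue of mice with and without the chromatin remodeler Smarcad1 in the intestinal epithelium. They were chosen by name, as the Paneth and goblet cell products of the deposited list that are not defensins, and make up 2 of its 119 genes. The series compared 4 libraries from wild type (WT) mice with 4 from Smarcad1-KO (KO) mice, all C57BL/6 and, by the study's methods, male and kept in specific opportunistic pathogen free conditions. KO mice carried loxP sites around the Smarcad1 exons that code for residues needed for ATP binding, on an allele made by recombineering in C57BL/6 J-derived ES cells, and the Vil-cre transgene, which expresses Cre recombinase from the Villin promoter. Deletion was therefore directed to the epithelium, while muscle, stroma and immune cells in the same tissue kept the gene. The age of the mice and any transgene or allele carried by the WT mice are not given in the sources used here.

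Paneth cells sit at the base of the small intestinal crypts beside the stem cells and release granules of antimicrobial proteins into the crypt lumen. Goblet cells secrete the mucus that covers the epithelium. Itln1 encodes intelectin, a lectin that binds glycans found on microbial surfaces, and in C57BL/6 mice it is made mainly by Paneth cells. Ang4 encodes angiogenin 4, a secreted member of the ribonuclease A family with bactericidal activity, found in Paneth and goblet cell granules. Neither is related in sequence to the alpha-defensins (Defa genes), the small cationic peptides that are the best known Paneth cell product.

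The genes lie apart in the genome, and neither overlaps another annotated gene. Itln1 (ENSMUSG00000038209, GRCm38) occupies chromosome 1 from 171518122 to 171535294 on the minus strand, with 8 exons that make up 1141 bp, or 6.64%, of its 17173 bp. Its nearest protein-coding neighbours are Alyref2 at 13.4 kb and Cd244a at 23.9 kb. Ang4 (ENSMUSG00000060615) occupies chromosome 14 from 51763878 to 51773590, also on the minus strand, with 2 exons that make up 709 bp, or 7.30%, of its 9713 bp. Its nearest protein-coding neighbours are AY358078 at 26.5 kb and Gm5800 at 46.7 kb. The 250 bases before each start are shown because both genes were lower in KO and neither shares a locus with the other or with the defensins. They are from RefSeq (GRCm38.p6), 5′ to 3′ on the gene's strand, at chr1:171535295-171535544 for Itln1 and chr14:51773591-51773840 for Ang4, and the capitals mark the only matches to the motifs searched.
Itln1: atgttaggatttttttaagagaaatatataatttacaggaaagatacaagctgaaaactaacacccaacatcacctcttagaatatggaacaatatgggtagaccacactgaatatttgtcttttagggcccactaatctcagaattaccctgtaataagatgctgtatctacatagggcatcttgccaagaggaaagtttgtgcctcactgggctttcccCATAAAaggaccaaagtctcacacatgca
Ang4: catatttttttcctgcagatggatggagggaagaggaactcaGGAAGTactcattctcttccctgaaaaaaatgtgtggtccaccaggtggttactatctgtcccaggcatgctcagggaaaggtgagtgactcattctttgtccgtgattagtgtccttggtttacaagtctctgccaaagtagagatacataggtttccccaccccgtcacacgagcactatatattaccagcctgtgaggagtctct
The search covered both strands of 300-base RefSeq windows, which add the first 50 bases of the gene, and the share of all 32851 windows with a match is given for each motif. Itln1 held TTTATG, a form of the caudal (Cdx) motif, read as CATAAA on the gene's own strand, at positions -29 to -24, where -1 is the base before the start. That motif stood in 11.9% of windows. Ang4 held GGAAGT, an Ets core motif, at positions -208 to -203, and 23.8% of windows held it. A TATA box written as TATAAA (13.6% of windows) was found in neither gene. The E-box CAGCTG (16.3% of windows) and the Tcf core CTTTGA (16% of windows) were likewise found in neither. The other caudal form, TTTATT, which differs from the first in the last letter only, stood in 19.6% of windows and in neither gene. No searched motif was thus shared by the members. Variant forms of the TATA box were not searched. The CATAAA of Itln1 differs from TATAAA in the first letter only, and the printed Ang4 bases hold tatatat near their end. The GC content of the window was 40.3% for Itln1 and 48.3% for Ang4, against a median of 52.7% over all windows. These are matches of letters, not sites of binding.

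The libraries held about 56981718 to 78026422 mapped reads, as recovered from the RPKM (reads per kilobase of genomic span, scaled to the mapped reads of a library), and 0.822% to 1.14% of them lay in the 119 genes. The targeted gene, Smarcad1, averaged 0.334 RPKM in WT (SD 0.0288) and 0.235 in KO (SD 0.0308), 29.5% lower with no overlap between the groups (limma adjusted p = 0.0106). That value covers the whole gene, while loxP sites flanked only some of its exons, and cells outside the epithelium kept it. The fall is therefore no measure of how complete the deletion was. Markers of tissue other than epithelium were looked for in the list, and it held 0 of 6 smooth muscle and 0 of 10 leukocyte genes. Since levels are known for listed genes only, the tissue label could be checked only by the epithelial genes among them, such as Defa24 of Paneth cells and Treh of enterocytes, which all 8 libraries held. The authors had selected all 119 genes by DESeq2 on the same 8 libraries, so a p-value of KO against WT for a listed gene is no independent evidence of a difference.

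Itln1 was among the genes of highest RPKM in the list. Its level was 101.9, 120.6, 98.5 and 116.4 RPKM in WT libraries 1 to 4 and 80.2, 82.2, 105.3 and 73.0 RPKM in KO libraries 1 to 4. KO library 3 lay within the WT range, above WT libraries 1 and 3, and the other 3 KO libraries lay below every WT library. WT libraries averaged 109.3 ± 10.8 RPKM and KO libraries 85.2 ± 14.01 RPKM (SD, n = 4 each), a mean 22.1% lower in KO. On the log2(RPKM + 0.1) scale the change was -0.37 ± 0.14 (SE, limma adjusted p = 0.0301 over the 119 genes). An exact permutation test of the single gene, two-sided, gave p = 0.0857 for this difference, with an exact 97.1% interval of -0.72 to 0.10. Omitting a single library removed the call in 5 of 8 fits, with limma adjusted p of 0.0805 without WT library 2, 0.0664 without WT library 4, 0.0697 without KO library 1, 0.0635 without KO library 2 and 0.0845 without KO library 4. Without KO library 3, the change was -0.47 (limma adjusted p = 0.0116).

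Ang4 was also lower in KO, and here the groups did not overlap. It stood at 35.1, 43.2, 38.0 and 47.3 RPKM in WT libraries 1 to 4 and at 30.7, 29.4, 34.6 and 26.5 RPKM in KO libraries 1 to 4. Every KO library lay below every WT library, although KO library 3, again the highest of its group, came within 0.484 RPKM of WT library 1. The mean fell from 40.9 ± 5.42 to 30.3 ± 3.36 RPKM (SD, n = 4 each), or by 26.0%. The log2 change was -0.43 ± 0.13 (SE, limma adjusted p = 0.0125). The exact permutation test, two-sided, gave p = 0.0286, the smallest that 4 against 4 libraries can give, with an exact 97.1% interval of -0.83 to -0.02. With any 1 library left out, the limma adjusted p of Ang4 lay between 0.00921 and 0.0378. In whole tissue, fewer Paneth or goblet cells and less of a transcript in each cell cannot be told apart, for either gene. The study reported the other direction for Itln1 elsewhere. It was raised in KO in sorted transit amplifying cells and adult enterocytes and in organoids, all of the small intestine. The sorted cells were called at a looser FDR cutoff than the genes listed here. The organoids came from mice that had lost Smarcad1 through ZP3-cre during oocyte development, not through Vil-cre. The study also named Ang4 among innate immunity genes that mostly rose in KO across its datasets. Those other samples were not analysed here.

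**Figure D1:**
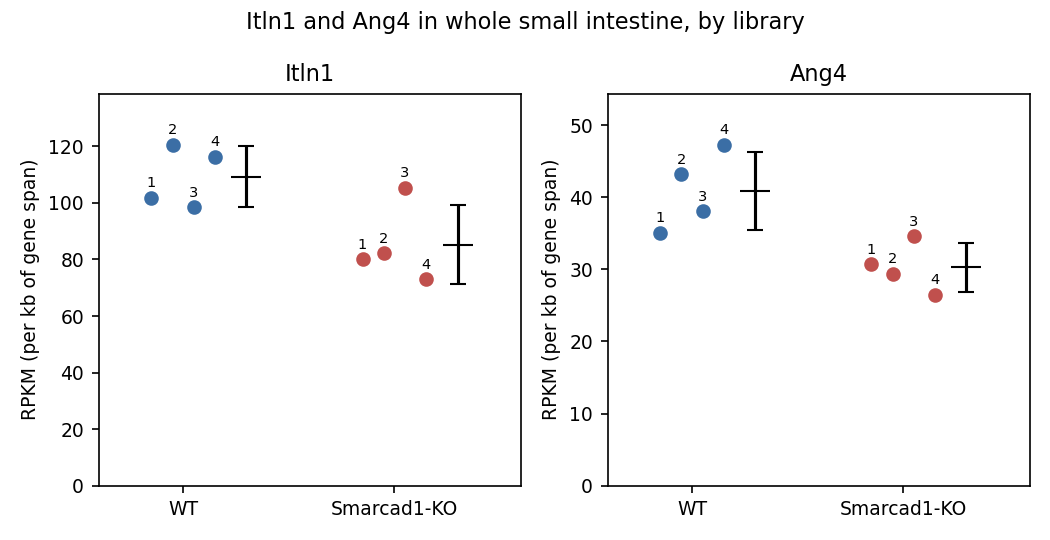
RPKM of Itln1 and Ang4 (vertical axes from 0) in each WT and Smarcad1-KO library, with the library number above each point and the mean ± SD (n = 4) beside the points. For Itln1, KO library 3 at 105.3 RPKM lies among the WT libraries, and for Ang4 every KO library lies below every WT library.

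Counting error was small beside the spread between libraries. Itln1 values rested on 82820 to 140630 reads per library, with a counting error of at most 0.347%, and Ang4 values on 16726 to 32306 reads, with at most 0.773%. The coefficient of variation between libraries was 9.89% in WT and 16.4% in KO for Itln1, and 13.3% in WT and 11.1% in KO for Ang4. Over the 77 listed genes with a mean of at least 0.5 RPKM, its median was 18.2% in WT and 13.1% in KO. Itln1 took 0.125% to 0.207% of the mapped reads of a library and 15.2% to 19.9% of the reads in the listed genes. Ang4 took 0.0257% to 0.0459% of the mapped reads. By mean RPKM they ranked 5 and 13 among the 119 genes.

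RPKM per kilobase of span understates genes with long introns, so the levels were also expressed per kilobase of exon. On that scale Itln1 had 1646 ± 163 in WT and 1282 ± 211 in KO, and Ang4 had 560.1 ± 74.3 in WT and 414.7 ± 46.0 in KO (SD, n = 4 each). The WT mean of Itln1 was 2.94 times that of Ang4 per kilobase of exon and 2.67 times per kilobase of span. Whether intron reads entered the values is not settled, and the change between groups does not depend on the length used. Reads of both genes can be told from those of relatives over most of the transcript. Of the 50-base stretches of annotated transcript, 11 of 1132 (0.972%) of Itln1 also stood in another gene, Gm9765, and 31 of 660 (4.70%) of Ang4 in Ang2 or Ang5. For the 8 listed defensins with a matching annotation this share was 28.1% to 100%, with a median of 83.4%, so the level of a single defensin is uncertain.

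The members were read against the whole list. Of the 119 genes, 36 had a limma adjusted p under 0.05 and were lower in KO (30.3%), and both members were among them. In 27 genes (22.7%) every KO library lay below every WT library, as was true of Ang4 and not of Itln1. The falls were moderate ones for the list. Of the 60 genes with a lower mean in KO, 34 had a more negative log2 change than Itln1 and 24 than Ang4, and the median was -0.39. The plot of change against level places both members near the defensins, at a high level and with a moderate fall.

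**Figure D2:**
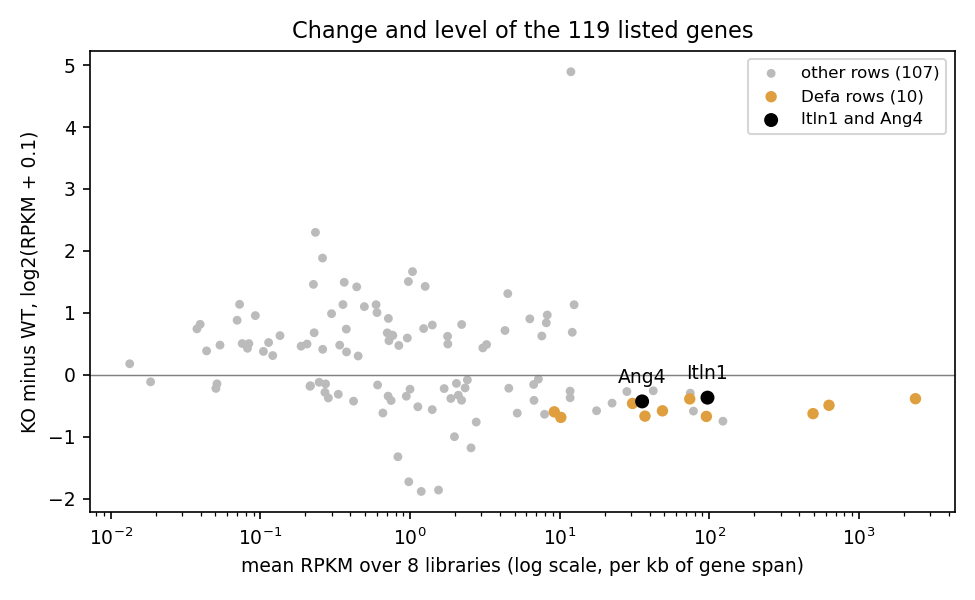
Log2 change of KO against WT (vertical axis, log2(RPKM + 0.1)) plotted against mean RPKM over the 8 libraries (horizontal axis, log scale) for the 119 listed genes, with the 10 Defa rows in orange and Itln1 and Ang4 in black. The members, at -0.37 and -0.43, lie at the high-level end, with the Defa rows spread between -0.69 and -0.39.

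The size of the change depended on how libraries were scaled. Rescaling them by median-of-ratios factors over the listed genes, in place of mapped reads, shifted the log2 change of a gene by a median of -0.14 over all 119 genes. Itln1 then changed by -0.52 (limma adjusted p = 0.00680) and Ang4 by -0.59 (limma adjusted p = 0.00384). The Itln1 groups still overlapped and the Ang4 groups did not. Across the list, the split of calls went from 36 lower and 58 higher to 57 lower and 58 higher, and the number of genes with every KO library below every WT library from 27 to 52. The factors were estimated from genes selected on these libraries.

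Ratios of genes within a library are free of its scaling. The list had not been selected on the ratios themselves. Every gene in them had been selected on its difference between the same groups, so tests of the ratios are not free of that selection. Itln1 was 2.90, 2.79, 2.58 and 2.46 times Ang4 by RPKM per kilobase of span (with 0.1 added to each) in WT libraries 1 to 4 and 2.61, 2.79, 3.04 and 2.75 times in KO libraries 1 to 4. The ranges of the groups overlapped between 2.61 and 2.90. The log2 ratio was 1.42 ± 0.11 in WT and 1.48 ± 0.09 in KO (SD, n = 4 each), a difference of 0.06 with an exact 97.1% interval of -0.15 to 0.31 (exact permutation test, two-sided, p = 0.4 and 0.4 after Benjamini-Hochberg adjustment over 3 ratios). The 4 libraries of each group thus set a limit on unequal change of the members, and no difference within it was detectable.

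The defensins were the next comparison. The list held 10 Defa rows, all on chromosome 8 and all lower in KO, with log2 changes between -0.69 and -0.39 and a median of -0.59. All 10 had a limma adjusted p under 0.05, against 36 of the 119 genes called lower (30.3%), and in 7 every KO library lay below every WT library, against 27 of 119 (22.7%). The defensins too had been selected on these libraries, so these counts are a description. Predicted genes of the defensin cluster, not all of which passed, are outside these counts. The study named Defa22 and Defa26, like Ang4, among innate immunity genes that mostly rose in KO across its datasets. All 10 had a more negative change than Itln1 and 8 a more negative change than Ang4. By RPKM the highest were Defa24, at 2701 ± 392 for WT and 2073 ± 357 for KO, Defa22, at 740.5 ± 127 and 521.8 ± 44.0, and Defa21, at 601.5 ± 136 and 385.6 ± 60.6 RPKM (SD, n = 4 each). The ratio of each member to the mean of these 10 rows was higher in KO, but not past the spread of the libraries. For Itln1 the log2 ratio was 0.07 ± 0.11 in WT and 0.26 ± 0.17 in KO, a difference of 0.19 with an exact 97.1% interval of -0.16 to 0.51 (exact permutation test, two-sided, p = 0.114, adjusted p = 0.343). For Ang4 it was -1.35 ± 0.12 in WT and -1.22 ± 0.14 in KO, a difference of 0.13 with an interval of -0.21 to 0.39 (exact permutation test, two-sided, p = 0.257, adjusted p = 0.386). In KO library 3 the log2 ratio of Itln1 to the defensins was 0.48, the highest of the 8 libraries, against 0.06 to 0.27 in the other KO libraries.

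**Figure D3:**
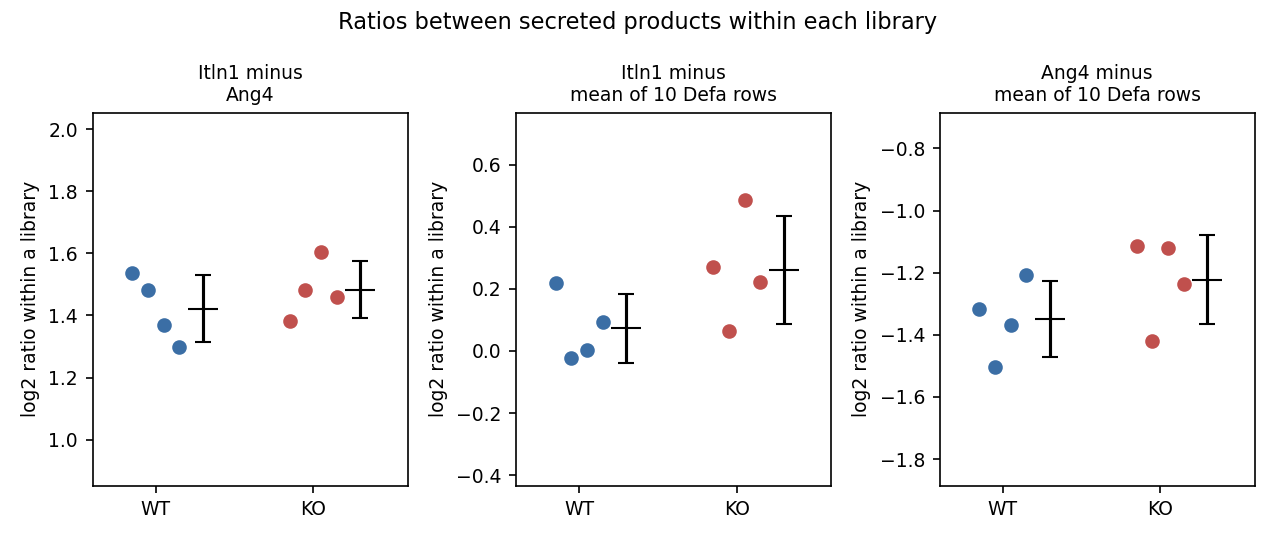
Log2 ratios within each library (vertical axes, each spanning the same range) of Itln1 to Ang4, of Itln1 to the mean of the 10 Defa rows and of Ang4 to that mean, for WT and KO, with mean ± SD (n = 4) beside the points. The WT and KO points overlap in every panel.

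The members followed each other from library to library. The likeness of profiles was measured as the root mean square difference in log2(RPKM + 0.1), each gene taken relative to its own WT mean, over the 8 libraries. Among 117 genes compared, Ang4 was the nearest to Itln1, at 0.0967, and the reverse held too, against medians of 0.572 for Itln1 and 0.609 for Ang4. Next to Itln1 came Defa24 at 0.113, Habp2, which encodes a secreted serine protease that binds hyaluronan, at 0.127, Defa26 at 0.133 and S100a6, a calcium-binding protein, at 0.167. Next to Ang4 came Defa26 at 0.1004, Defa22 at 0.114, Habp2 at 0.120 and Defa24 at 0.128. Part of this likeness is the difference between the groups, on which the list was selected. After each group mean was removed, Ang4 remained the nearest to Itln1, at 0.0866 against a median of 0.235, followed by Defa24 at 0.112 and Defa26 at 0.116. Itln1 likewise remained the nearest to Ang4, followed by Defa26 at 0.0976 and Defa22 at 0.105, against a median of 0.228. Such a distance is also small between any genes that vary little from library to library, and the medians cover listed genes of every level. The genes share the library, its depth and its piece of tissue, and these distances are descriptions over 8 libraries.

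**Figure D4:**
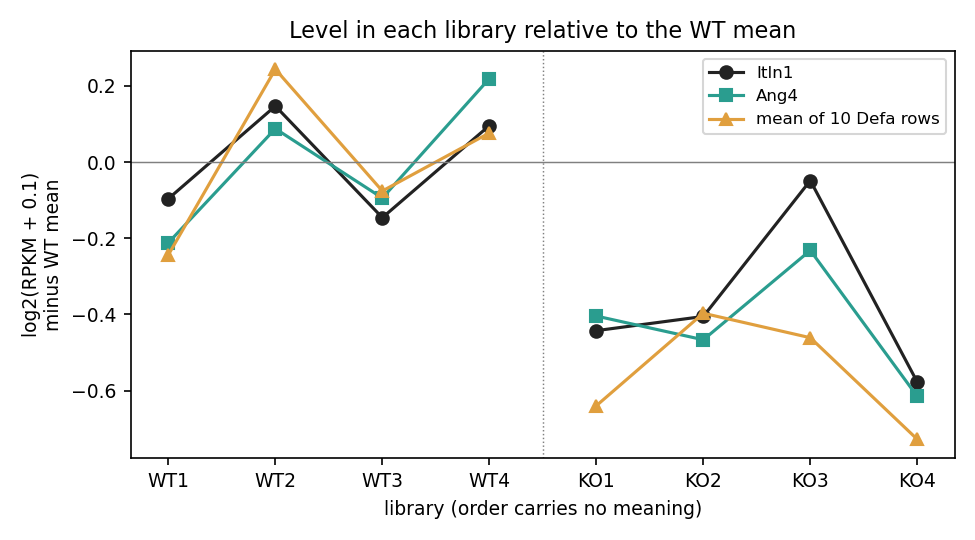
Log2(RPKM + 0.1) minus the WT mean (vertical axis) in each of the 8 libraries (horizontal axis) for Itln1, Ang4 and the mean of the 10 Defa rows. Itln1 and Ang4 keep close to each other, with KO library 3 at -0.05 and -0.23, where the Defa mean is at -0.46.

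Around the members in function, few other genes were in the list. Of 22 Paneth cell products looked for, 12 were listed, Itln1, Ang4 and the 10 Defa rows, and all 12 were called lower, where 36 of the 119 listed genes (30.3%) were. Those looked for had been chosen with earlier results of these data known, and included both members and all 10 Defa rows of the list. The share listed is therefore no result. As all 12 had already passed the authors' selection, the count called lower is no separate evidence. The other Paneth cell products looked for were not listed. They were Lyz1, Lyz2, Mmp7, Pla2g2a, Mptx1, Mptx2, Reg3a, Reg3b, Reg3g and Defa5. None of 10 goblet cell products, such as the mucin gene Muc2 and Tff3, was listed, nor any of 10 regulators of the secretory lineage, such as Atoh1 and Spdef. Itln1 was the only 1 of 10 secreted lectins and Ang4 the only 1 of 14 ribonuclease A family genes in the list. The list also held 0 of 12 genes of the type 2 immune response, a setting in which intelectin and angiogenin 4 are known to be induced. The levels of genes that are not listed were not analysed here.

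Listed genes taken from marker lists of other cell types moved in both directions. Which cells of this tissue made them was not tested. The digestive enzyme genes Clps (colipase), with WT libraries at 25.9 ± 3.81 RPKM and KO libraries at 18.9 ± 2.81 RPKM (limma adjusted p = 0.0166), and Pnliprp2 (a pancreatic lipase-related protein), at 6.34 ± 1.33 and 4.08 ± 0.688 (limma adjusted p = 0.0106), were both lower, as the members were (SD, n = 4 each). They were 2 of 10 pancreatic acinar genes looked for, and their summed level ranged over 26.2 to 37.1 RPKM for WT and 20.1 to 27.0 RPKM for KO. Their part in the result for Itln1 and Ang4 was not tested. Of 10 enterocyte genes, Treh (trehalase, a brush border enzyme) was listed and rose from 5.57 ± 1.25 to 10.96 ± 2.27 RPKM (SD, n = 4 each, limma adjusted p = 0.00269). Of 8 crypt base stem cell genes, Ascl2 (a transcription factor of the stem cells) was listed, with WT libraries at 2.58 ± 0.767 and KO libraries at 1.85 ± 0.127 RPKM (SD, n = 4 each), and did not pass (limma adjusted p = 0.0897).

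The other listed genes on these chromosomes were higher in KO. Chromosome 1 held 8 listed genes, and Itln1 was the 1 that was lower. The other 7, Oprk1, Khdc1a, Pgap1, Wdfy1, Gm9994, Sccpdh and Lyplal1, were all called higher in KO, as were 58 of the 119 listed genes (48.7%). The nearest, Sccpdh, lay 8.13 Mb from Itln1 and rose from 1.39 ± 0.268 to 2.17 ± 0.0262 RPKM (SD, n = 4 each, limma adjusted p = 0.00350). On chromosome 14 the only other listed gene was AC125117.1, 446 kb from Ang4, which had 0 reads in each WT library and 55 to 283 reads in the KO libraries. None of the relatives of Ang4 annotated on chromosome 14, among them Ear6 at 0.0898 Mb, Ang2 at 0.569 Mb, Rnase1 at 0.619 Mb and Rnase6 at 0.640 Mb, was listed.

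**Figure D5:**
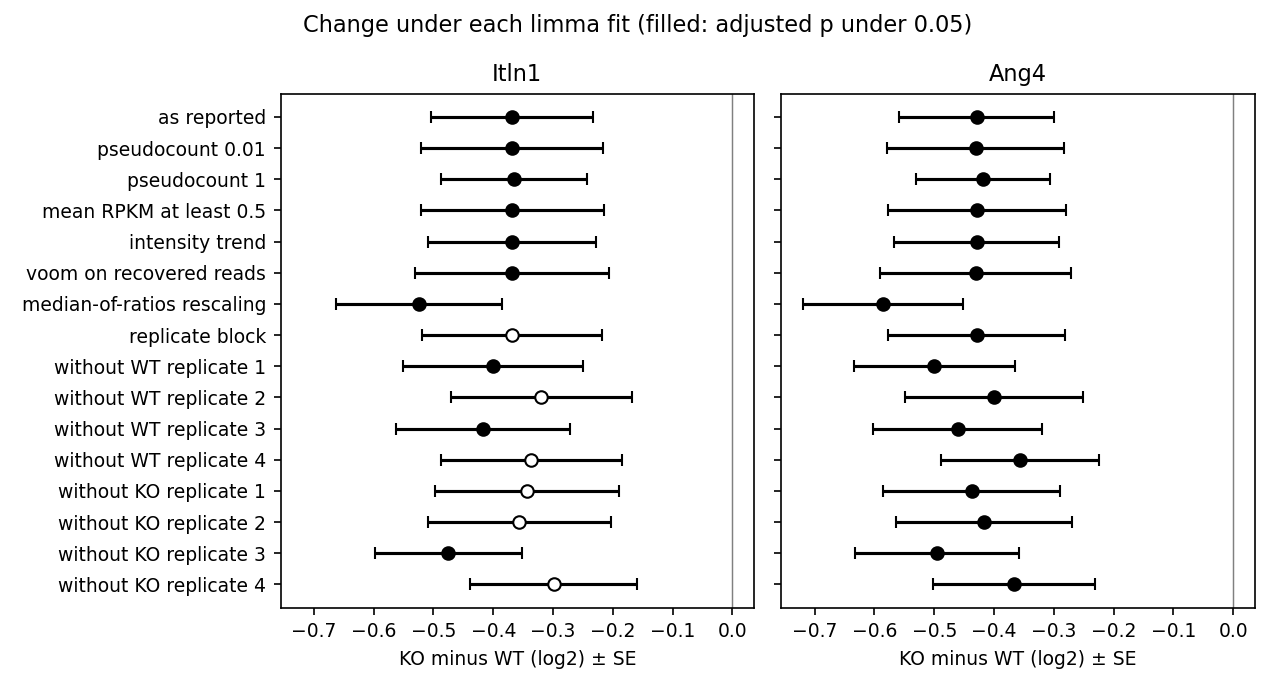
Log2 change of KO against WT ± SE (horizontal axes) for Itln1 and Ang4 under each limma fit (vertical axis), with filled points where the adjusted p was under 0.05. Every fit gave a lower level in KO for both genes, and the open points for Itln1 are the replicate block and 5 of the fits without 1 library.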

How the data were processed

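RNA was measured by sequencing in whole SI tissue, 4 WT and 4 KO libraries by their genotype labels. The labels do not say that the libraries came from separate mice, so p-values measure the spread between these samples. The authors trimmed reads with Trim Galore 0.4.1, mapped them to GRCm38 with HISAT2 2.0.1, counted uniquely mapped reads in SeqMonk and tested raw counts with DESeq2, per the labels and the methods. The authors deposited RPKM per library for the 119 genes under an FDR of 0.05, with group means and that FDR. The FDR, an adjusted p-value of the authors' own comparison, and the mean columns deposited beside it were not used. No per-sample column was left out.

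Each RPKM multiplied by genomic span and a fitted depth came to a whole read number (tolerance 0.05) for 100% of 939 values above 0, so the deposited RPKM are per kilobase of span. Depth is known only from this fit.

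Limma 3.58.1 in R 4.3.3 was run over all 119 genes on log2(RPKM + 0.1) (group as the only term, Benjamini-Hochberg adjustment, threshold 0.05). This scale understates changes of low genes. Single values were compared by exact permutation of the 8 libraries. An exact interval holds the differences that this test would not refuse at its smallest p. Annotation was GENCODE mouse release M21, and promoters were from RefSeq. The scripts were tested on simulated data, in Python 3.11.15.

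The members and gene lists were chosen with earlier results of these data known. Named were the members, Smarcad1, listed genes of each gene list (the 3 of highest RPKM for long lists), the 5 genes of most similar profile to each member and the 3 after removal of group means, and the other listed genes on chromosomes 1 and 14. Unlisted relatives and neighbours are named from the annotation. A further gene is not reported here. Alternatives were pseudocounts of 0.01 and 1, a mean RPKM of at least 0.5, an intensity trend, voom on recovered reads, rescaled libraries, a replicate block, exact permutation per gene, a threshold of 0.01, a wider defensin list and leaving out each library.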

Additional observations from a re-analysis of the deposited data

How the results depend on the processing

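Both members were lower in KO under every alternative run. Itln1 (-0.37, log2) lost its call at a threshold of 0.01 (-0.37, limma adjusted p = 0.0301), by exact permutation (-0.37, p = 0.0857) and with a replicate block (-0.37, limma adjusted p = 0.0661). With 1 library left out its change lay between -0.47 and -0.30, with limma adjusted p from 0.0116 to 0.0845. Ang4 lost its call only at a threshold of 0.01 (-0.43, limma adjusted p = 0.0125), as did Smarcad1 (-0.37, limma adjusted p = 0.0106). Their leave-one-out changes were -0.50 to -0.36 and -0.43 to -0.33. The size of the Smarcad1 change, at low RPKM, depended on the pseudocount, with -0.49 at 0.01, -0.11 at 1 and -0.50 by voom, each past the threshold, and the gene lay under the minimum mean of 0.5 RPKM.

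Correlations of same-numbered deviations over 77 genes were 0.27, 0.21, -0.11 and -0.03. Differently numbered libraries were not correlated for comparison, so whether replicate numbers pair the libraries is not settled. With the replicate block Ang4 had a limma adjusted p of 0.0386, and 90 genes passed in place of 94. At a threshold of 0.01 there were 62 calls. Limiting the fit to the 77 genes averaging 0.5 RPKM or more gave 56 calls, and 50 genes with groups apart in place of 85, since fewer genes were counted. Voom on the recovered reads called 94. Leaving out 1 library gave 86 to 99 calls and 85 to 97 genes with groups apart.

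The differences in log2 ratio, 0.06, 0.19 and 0.13, moved to between 0.02 and 0.10, 0.11 and 0.25, and 0.07 and 0.19 with 1 library left out, for which no exact test was run. None passed the threshold with another pseudocount, as a limma row or with the wider defensin list of 15 rows (exact permutation p = 0.114 for Itln1 and 0.143 for Ang4). With the replicate block, an exact sign-flip test of 4 pairs cannot go below p = 0.125 and so could not pass. It gave that smallest value for Itln1 against the defensins, higher in KO in 4 of 4 pairs. Depth did not limit the members, but 4 libraries a group did, and the selection of the list on these libraries limits what any p-value here can show.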

Other observations

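The rescaling factors set WT libraries 1 and 4 apart, at 0.825 and 0.840 against 0.997 to 1.08 in the other 6 libraries. A factor below 1 means that the median listed gene was low relative to mapped reads. Dividing by it raised Itln1 to 123.5 RPKM in WT library 1 and 138.6 RPKM in WT library 4, and Ang4 to 42.5 and 56.3 RPKM. The WT spread then widened, to 118.3 ± 18.2 RPKM for Itln1 and 44.2 ± 8.44 RPKM for Ang4 (SD, n = 4 each), while the KO spread narrowed to 82.0 ± 11.1 and 29.2 ± 2.31 RPKM. The means were 30.7% and 34.1% lower in KO on that scale. WT library 3 remained the lowest WT library for Itln1, at 94.7 RPKM, and took the place of WT library 1 as the lowest for Ang4, at 36.6 RPKM, and KO library 3 stayed the highest KO library, at 97.4 and 32.0 RPKM. No sample of either gene stood apart from its group by Dixon's criterion.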
